A study of Mus musculus with 2 samples.

Results

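The 9 genes described here encode developmental transcription factors that record where in the embryo a fat depot arose: Zic1, Lhx8, Tbx15, Tbx18, Tbx5, Pax3, En1, Meox1 and Meox2. They were chosen by name, with earlier results of these data known, and all 9 are among the 27995 features listed in both libraries. Their levels were read in stromal cells grown from mouse inguinal white adipose tissue (iWAT), the fat under the skin of the groin, and from interscapular brown adipose tissue (iBAT), the heat-producing fat between the shoulder blades.

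Each depot gave 1 library. Stromal vascular cells of wild-type C57BL/6N mice aged 8 to 12 weeks were cultured to 80% confluency and, per the sample labels, were left untreated or given fibroblast growth factor 1, 2 or 8 (FGF1, FGF2, FGF8) at 5.5 nM for 48 h. The 4 cultures of a depot were stained with antibody tags, pooled at 10000 cells per tag and loaded on a 40000-cell BD Rhapsody cartridge for whole-transcriptome sequencing. In this microwell system messages are labelled by cell and counted as unique molecular identifiers (UMIs), so that amplified copies count once. The design text of the series names FGF2 and untreated cells only, and the methods describe vehicle, FGF1 and FGF2 and give another age range. These differences were not resolved. No file used here ties a cell to its tag, so each depot is a single sample holding all its treatments, and no treatment was compared. Nor do the sources used here say how many mice were pooled.

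With 1 library per depot a difference between depots has no replicate check, and no test was made. All intervals below are 95% intervals. Those of levels are exact Poisson and those of ratios of levels conditional binomial, for counting error alone. Shares of cells have Clopper-Pearson intervals and ratios of shares log-normal (Katz) ones, both for the sampling of cells within a library. Co-detection ratios have Poisson intervals on the observed count, with the expected number held fixed. The iWAT library held 503611913 UMIs in 29962 barcodes and the iBAT library 815235820 in 28636, with 8 barcodes in common. Cells with more than 200 and fewer than 7500 genes and less than 30% mitochondrial UMIs were kept, which left 29744 iWAT cells with a median of 16204 UMIs and 28215 iBAT cells with a median of 27235. Sex-linked genes also separated the libraries, with Xist at 345 UMIs per 1000000 (CPM) in iWAT and 0.0505 in iBAT and the Y-linked gene Uty at 0.291 and 16.3. Depot, sex of the mice, culture and library therefore cannot be told apart in any depot ratio below.

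Cells were sorted in silico by single genes. Cells with a UMI of Pdgfra, the platelet-derived growth factor receptor of fibroblasts and adipocyte precursors, and none of the other 4 gate genes formed the stromal class, 15234 cells in iWAT (51.2% of kept cells) and 24277 in iBAT, the greater part of that library. At least 2 UMIs of Epcam (epithelium), Pecam1 (endothelium), Sox10 (Schwann cells) or Myod1 (skeletal myoblasts), again with no UMI of another gate gene, defined the other classes. In iBAT these held 0, 120, 479 and 154 cells. Each of the 3 filled classes had all 8 of its own marker genes at 10 CPM or more, but the gate gene is among the 8 and passes by construction. In iWAT these classes held 1802, 26, 107 and 2 cells. A further 12573 iWAT cells (42.3%) and 3185 iBAT cells (11.3%) entered no class, having too few gate UMIs or UMIs of several gate genes. Col1a1 was at 15474.9 CPM over all kept iWAT cells against 17557.5 in the stromal class. Cells in no class are therefore not shown to be other cell types, and how many are stromal was not tested. The iWAT Sox10 class also carried 7 of 8 epithelial markers at 10 CPM or more (811 CPM summed). Its 8 Schwann markers summed to 1530 CPM, of which the gate gene Sox10 itself gave 393. The iWAT Pecam1 class carried all 6 immune markers (3354 CPM summed), so these 2 iWAT classes are named by their gate gene only.

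Fat depots descend from different stretches of embryonic mesoderm, and cells keep part of that address as a stable set of transcription factors. Interscapular brown fat shares a somitic origin, the dermomyotome, with dorsal dermis and back muscle, a compartment marked in the embryo by En1, Pax3, Meox1 and Meox2, whereas inguinal fat forms at the level of the hind limb. Zic1 and Lhx8 are widely used as marker genes of classical brown fat, and the T-box factors Tbx15, Tbx18 and Tbx5 pattern body wall, somite, limb and heart.

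On GRCm39 with GENCODE M39 genes, Zic1 is at chr9:91240111-91247863 on the minus strand and overlaps Zic4 on the plus strand. Tbx18 lies on the same chromosome at chr9:87584851-87613338. Lhx8 (chr3:154011931-154036296, minus) and Tbx15 (chr3:99147697-99294185, plus) share chromosome 3, and Pax3 (chr1:78077904-78173771, minus) and En1 (chr1:120530108-120535721, plus) share chromosome 1. Tbx5 is at chr5:119970733-120023284, Meox1 at chr11:101768336-101785227 and Meox2 at chr12:37158533-37229533. No annotated gene overlaps the 3′ end of any of them, where the library chemistry captures messages, although whether the counting used strand is not given in the sources used here.

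RefSeq promoter windows, 250 bases before to 50 after the gene start on GRCm38.p6, were found for 5 of the 9 genes. Of these, 4 are shown because they span the range of depot ratios, Zic1 and Meox2 with the highest iBAT ratios, Lhx8 in the middle and En1 on the iWAT side. They lie at chr9:91365719-91366018 (minus), chr12:37108290-37108589 (plus), chr3:154330511-154330810 (minus) and chr1:120602237-120602536 (plus). Each is written 5′ to 3′ on the strand of its gene, with CG dinucleotides, the sites of DNA methylation, in capitals.
Zic1: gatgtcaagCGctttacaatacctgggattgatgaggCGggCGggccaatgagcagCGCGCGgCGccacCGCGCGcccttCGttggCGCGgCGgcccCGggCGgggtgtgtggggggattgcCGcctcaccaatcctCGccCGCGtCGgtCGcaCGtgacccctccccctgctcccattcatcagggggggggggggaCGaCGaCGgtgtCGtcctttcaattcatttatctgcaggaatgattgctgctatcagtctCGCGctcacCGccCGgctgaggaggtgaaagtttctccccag
Meox2: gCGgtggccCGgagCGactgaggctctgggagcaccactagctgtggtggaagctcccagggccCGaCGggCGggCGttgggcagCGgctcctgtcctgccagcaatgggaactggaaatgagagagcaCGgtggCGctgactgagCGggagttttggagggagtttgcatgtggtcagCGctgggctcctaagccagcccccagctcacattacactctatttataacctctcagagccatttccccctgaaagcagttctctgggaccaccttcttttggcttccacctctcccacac
Lhx8: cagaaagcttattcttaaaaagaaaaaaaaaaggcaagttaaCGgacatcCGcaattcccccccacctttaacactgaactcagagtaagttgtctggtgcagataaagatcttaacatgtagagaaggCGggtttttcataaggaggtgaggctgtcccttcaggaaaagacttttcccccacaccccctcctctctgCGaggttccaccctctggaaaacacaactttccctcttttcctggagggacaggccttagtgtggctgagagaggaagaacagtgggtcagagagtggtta
En1: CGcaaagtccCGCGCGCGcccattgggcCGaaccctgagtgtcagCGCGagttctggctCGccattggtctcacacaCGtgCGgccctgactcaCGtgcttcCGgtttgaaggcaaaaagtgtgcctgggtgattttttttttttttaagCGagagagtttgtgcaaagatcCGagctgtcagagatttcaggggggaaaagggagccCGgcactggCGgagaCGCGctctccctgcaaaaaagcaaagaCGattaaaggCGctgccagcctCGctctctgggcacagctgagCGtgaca
The Zic1 window holds 31 CG dinucleotides, a number that 10.6% of all 32851 windows reach. En1 holds 23 (21.5% of windows), Meox2 12 (39.6%) and Lhx8 4 (68.6%), against a median of 7 over all windows. The unshown Tbx18 window holds 15 (34.6%). Of 4 short motifs searched on both strands, CACGTG was present in the Zic1 and En1 windows (7.15% of all windows), CCAAT in those of Zic1, Tbx18 and En1 (37.4%), TATAAA in that of Meox2 (13.6%) and TAATTA in none of the 5 (5.29%). The Lhx8 window held none of the 4. These matches are letters in a window and were not tied to the levels.

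Across the stromal cells of the depots, Zic1 stood apart from the rest. Its level was 19.7 CPM in iBAT from 13735 UMIs and 0.274 CPM in iWAT from 78 UMIs, a ratio of 72.0 (57.7 to 91.2) and a log2 ratio of 6.17. Meox2, a somite and vascular homeobox factor, came next with 24.4 CPM in iBAT and 3.96 in iWAT, a ratio of 6.15 (5.79 to 6.54). These were the 2 of 9 factors at least 4-fold higher in iBAT, a size reached by 2.78% of the 18500 genes with at least 100 UMIs over both classes. None of the 9 was 4-fold higher in iWAT, where 2.29% of genes were.

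**Figure D1:**
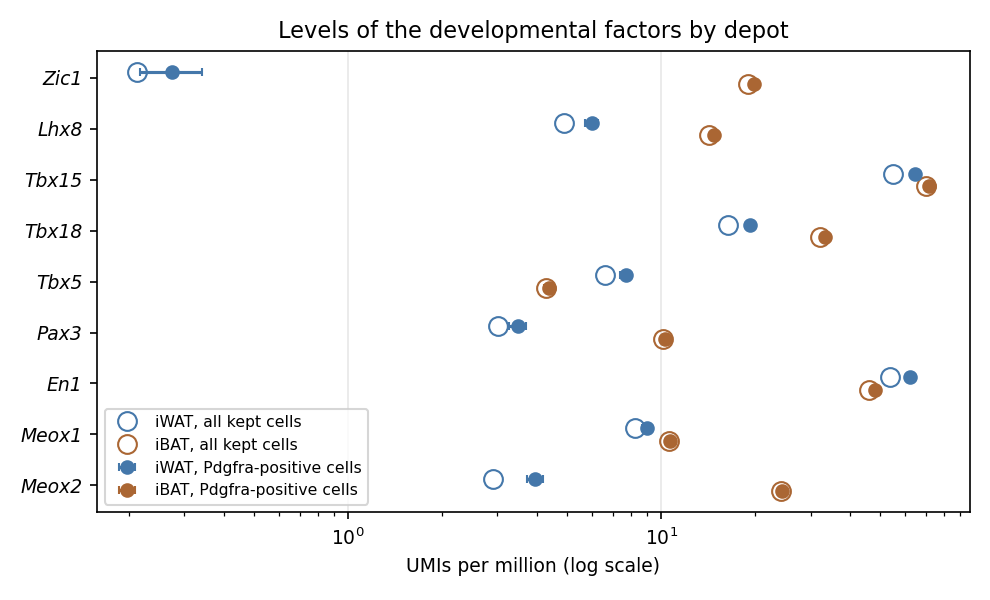
Level of each factor in CPM on a log axis, in iWAT (blue) and iBAT (brown). Filled points are Pdgfra-positive cells with 95% Poisson intervals, mostly narrower than the point, and open circles are all kept cells. Zic1 shows the widest gap, 0.274 against 19.7, while Tbx15 and En1 are high in both depots.

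The next factors on the iBAT side were Pax3 and Lhx8. Pax3, the paired-box factor of dermomyotome and neural crest, was at 10.3 CPM in iBAT and 3.49 in iWAT, a ratio of 2.95 (2.76 to 3.15). Lhx8, a LIM-homeobox factor, was at 14.8 and 6.01 CPM, a ratio of 2.46 (2.33 to 2.59). Thus 4 of 9 factors were 2-fold or more higher in iBAT and 0 in iWAT, where 8.01% and 7.55% of all genes were.

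The T-box factors did not move as a block. Tbx18, a factor of the somites and of the mesenchyme around vessels, was at 33.3 CPM in iBAT and 19.2 in iWAT, a ratio of 1.74 (1.69 to 1.79). Tbx15, a regulator of dermal and skeletal mesenchyme, was the most abundant of the 9 in both depots, with 71.6 and 64.5 CPM and a ratio of only 1.11 (1.09 to 1.13). Tbx5, the forelimb and heart factor, was higher in iWAT, at 7.70 CPM, than in iBAT, at 4.39 CPM, an iWAT to iBAT ratio of 1.75 (1.66 to 1.85).

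En1 and Meox1, both dermomyotomal factors, were at similar levels in the depots. En1 was at 62.5 CPM in iWAT and 48.1 in iBAT, an iWAT to iBAT ratio of 1.30 (1.28 to 1.33). Meox1 was at 9.01 CPM in iWAT and 10.7 in iBAT, a ratio of 1.19 (1.13 to 1.24). In all, 7 of 9 factors were higher in iBAT and 2 in iWAT, beside 55.2% of all genes higher in iBAT by any amount. The median log2 ratio was 0.80 over the 9 factors and 0.05 over all genes. Within iBAT the order of levels from the top was Tbx15, En1, Tbx18, Meox2, Zic1, Lhx8, Meox1, Pax3 and Tbx5, and the intervals of Meox1 and Pax3 overlapped, so these neighbours are not ordered beyond counting error. In iWAT it was Tbx15, En1, Tbx18, Meox1, Tbx5, Lhx8, Meox2, Pax3 and Zic1, with no overlap between neighbours. The iWAT intervals of Tbx15 (63.6 to 65.5) and En1 (61.6 to 63.5) nearly met, and spread between cells is not in them. Counting was at 3′ ends, so levels were not divided by length, and these orders rest on CPM of 3′ tags.

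The same ordering of depots appeared in shares of cells. Classes were gated on unthinned counts, so class membership was set at unequal depth. Every cell was then thinned to 10000 UMIs, which kept 13692 of 15234 iWAT stromal cells and all those of iBAT. At that depth Zic1 was seen in 26 iWAT stromal cells (0.190%, 0.124 to 0.278) and in 3507 of 24277 iBAT stromal cells (14.4%). In iWAT Epcam-positive cells Zic1 was seen in 0 of 955, which allows a share of up to 0.314% if 3 counts are taken as the limit, so at this depth its iWAT stromal share is not above what this comparison class allows. Over all UMIs Zic1 had 1 UMI in the 1802 Epcam-positive cells, 0.172 times its stromal level (0.00431 to 0.989). In iBAT it was seen in 0.833% of Pecam1-positive (1 of 120, below 3 counts), 1.04% of Sox10-positive (5 of 479) and 7.79% of Myod1-positive cells (12 of 154). Without thinning the stromal shares were 0.348% and 26.8%.

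Meox2 was seen in 3.62% of iWAT and 18.9% of iBAT stromal cells at fixed depth, against 0.314% of iWAT Epcam-positive and 1.25% of iBAT Sox10-positive cells. Lhx8 was seen in 5.41% and 10.7%, against 0.628% and 0.626% in those classes, and Pax3 in 3.10% and 8.63%, with 0.838% in iWAT Epcam-positive and 1.67% in iBAT Pecam1-positive cells. These are the classes where each gene was low. Some of these shares rest on 3 counts or fewer, namely Meox2 in Epcam-positive (3 of 955), Lhx8 in Sox10-positive (3 of 479) and Pax3 in Pecam1-positive cells (2 of 120). Meox2 was seen in 63.3% of iBAT Pecam1-positive cells and Pax3 in 13.8% of iBAT Sox10-positive cells at this depth, above their stromal shares. In iWAT Pax3 was seen in 4 of 48 Sox10-positive cells (8.33%, with a lower bound of 2.32%), an interval that holds its stromal share. Thinned to 5000 UMIs, which keeps 107 such cells, Pax3 was seen in 8 of them (7.48%, 3.28 to 14.2). Its stromal share at 5000 UMIs was 1.54% (1.35 to 1.74), so there the intervals do not meet. Median depths before thinning were 19016 UMIs in iWAT stroma, 27759 in iBAT stroma, 13943 in iWAT Epcam-positive, 13872 in iWAT Sox10-positive, 14946 in iBAT Sox10-positive and 19819 in iBAT Pecam1-positive cells.

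Tbx15 and En1 were the broadly detected factors. Tbx15 was seen in 44.7% of iWAT and 48.1% of iBAT stromal cells and En1 in 42.2% and 34.6%, against 12.0% and 9.01% of iWAT Epcam-positive cells and 7.93% and 2.92% of iBAT Sox10-positive cells. Tbx18 was seen in 16.5% and 25.8%, Tbx5 in 7.07% and 4.12%, and Meox1 in 5.78% and 6.76%. In Epcam-positive iWAT cells these were 3.46%, 1.36% and 1.88%, and in Sox10-positive iBAT cells 2.71%, 0.835% and 0.626% (3 of 479). Without thinning, where iBAT cells are the deeper, the En1 shares were 57.7% in iWAT and 62.9% in iBAT. That order is opposite to its order in CPM, and it made 8 rather than 7 factors more often seen in iBAT. The unthinned shares in iWAT and iBAT were 61.7% and 78.2% for Tbx15, 26.8% and 51.4% for Tbx18, 11.9% and 9.39% for Tbx5, and 8.96% and 14.4% for Meox1. They were 5.51% and 36.3% for Meox2, 8.25% and 21.2% for Lhx8, and 5.13% and 19.5% for Pax3.

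The spread of the factors over stromal cells was also read. If all cells had the same level, the variance of UMIs per cell at fixed depth would equal the mean. Meox1 had the highest ratio, with a variance 2.22 times the mean in iWAT and 2.11 times in iBAT, and 91 iWAT and 193 iBAT cells held 3 or more of its UMIs. In iBAT, Zic1 followed at 1.56 and Lhx8 at 1.53. This ratio rises with the mean, so it does not rank factors of different level by evenness. Meox1 in iBAT was seen in 6.76% of cells, where an equal level in every cell would give 9.60%.

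The 9 factors were set beside a list of other transcription factors of body position, limb, somite and craniofacial mesenchyme, 82 of 84 of which were listed in both libraries and 74 of which reached 100 UMIs. Of these 74, 11 were at least 4-fold higher in iBAT and 10 in iWAT, 24 and 18 at least 2-fold, and their median log2 ratio was 0.24. On the iWAT side the widest ratios exceeded any among the 9. Hoxc10, a posterior homeobox gene of hind limb and lumbar levels, was at 151 CPM in iWAT and 0.404 in iBAT, and Pitx1, the hindlimb identity factor, at 4.29 and 0.0173. Alx4 was at 4.01 CPM in iWAT and 0.190 in iBAT, and Hand2 at 2.12 and 0.175. On the iBAT side Zic4, the neighbour that overlaps Zic1, had the ratio closest to it at 44.2 (2.33 and 0.0527 CPM), then Six2 at 18.4. Shared patterning factors of mesenchyme such as Prrx1 (640 CPM in iWAT, 482 in iBAT) and Ebf1 (173, 206) stood far above the 9 in level, with depot ratios nearer 1 than that of Nr2f2 (99.3, 214), which was 2.16.

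**Figure D2:**
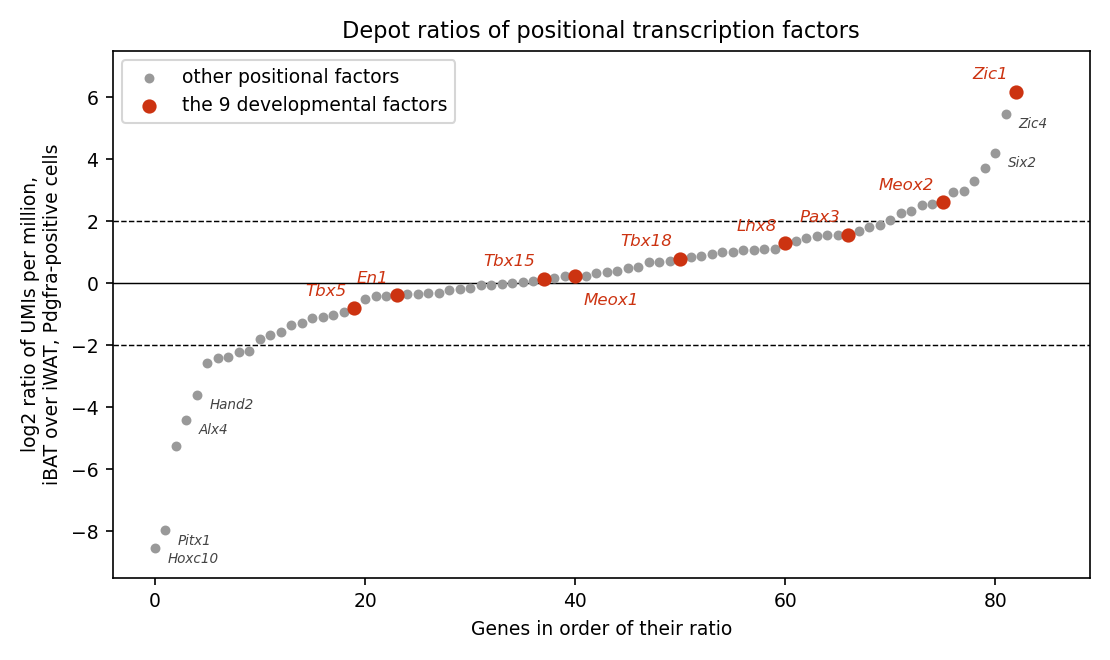
Log2 ratio of CPM in Pdgfra-positive cells, iBAT over iWAT, for the 9 factors (red) and 74 other positional factors (grey), in order of the ratio. Dashed lines mark 4-fold. Zic1 at 6.17 is the highest of all, and the lowest are Hoxc10 and Pitx1.

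Outside the stroma, 4 of the 9 factors were higher in another class than in Pdgfra-positive cells. In iBAT, Meox2 was at 151 CPM in Pecam1-positive cells, 6.19 times its stromal level (5.58 to 6.86), and was seen in 63.3% of those 120 cells at fixed depth (76.7% unthinned) against 18.9% of stromal cells. Meox1 was at 51.0 CPM there, 4.77 times stroma (3.98 to 5.68), and seen in 19.2% (34.2% unthinned) against 6.76%. The other 7 were at 0.182 times their stromal level or less, where 9 mesenchymal marker genes ranged from 0.0742 to 0.197 times. Of the 9, 2 were higher in endothelial than in stromal cells, where 55.4% of all genes were. When cells with UMIs of other gate genes were let in, the Meox2 ratio was 3.92 and the Meox1 ratio 3.28. The 26 iWAT Pecam1-positive cells, which mix endothelial and immune markers, had 26 UMIs of Meox1 and 8 of Meox2, ratios of 8.90 (5.80 to 13.1) and 6.23 (2.68 to 12.3).

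Tbx15 was highest in the muscle class. In the 154 iBAT Myod1-positive cells it was at 176 CPM, 2.46 times its stromal level (2.25 to 2.68), and seen in 67.5% at fixed depth (78.6% unthinned) against 48.1% of stroma. It was the 1 of 9 factors higher there, as 49.8% of genes were. The value moved with the mitochondrial share, as Tbx15 was at 281 CPM in the 50 of these cells with at least 15% mitochondrial UMIs and at 116 CPM in the other 104. With more than 500 genes and less than 15% mitochondrial UMIs required, and no upper gene limit, the ratio was 1.61. Zic1, En1 and Pax3, which also mark muscle precursors of the back, were at 0.337 (0.206 to 0.520), 0.291 (0.209 to 0.393) and 0.421 (0.224 to 0.720) times their stromal level in Myod1-positive cells. Tbx18 was at 0.160 (0.0912 to 0.259). These 4 values exceeded the 0 to 0.101 range of the 9 mesenchymal markers in the same cells, although the Tbx18 interval reaches into it. In iBAT, Tbx5 had 0 UMIs in Myod1-positive and in Pecam1-positive cells, which allows 0.998 and 1.19 CPM if 3 counts are taken as the limit.

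In iBAT, Pax3 was higher in the Sox10 class, which carried Schwann markers, than in stroma. There it was at 16.3 CPM in 479 Sox10-positive cells, 1.58 times stroma (1.32 to 1.89), and seen in 13.8% (18.6% unthinned) against 8.63% of stromal cells. It was the 1 of 9 above stroma, as 45.7% of genes were, and the other 8 lay between 0.0589 and 0.177 times. The 9 mesenchymal markers ranged from 0.0321 to 1.35 times stroma in this class, with Col1a1 at 8298 CPM against 6271 in stroma, so the upper end of that range meets the Pax3 interval. The part of such messages in the Pax3 level was not tested. In the 107 iWAT Sox10-positive cells, which also carry epithelial markers, Pax3 had 9 UMIs and a ratio of 2.20 (1.00 to 4.20). It was again the 1 of 9 above stroma, beside 58.4% of genes. In iWAT Epcam-positive cells no factor of the 9 was above stroma, where 48.3% of genes were, and their ratios of 0.119 to 0.267 nearly coincided with those of the mesenchymal markers, 0.117 to 0.217.

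**Figure D3:**
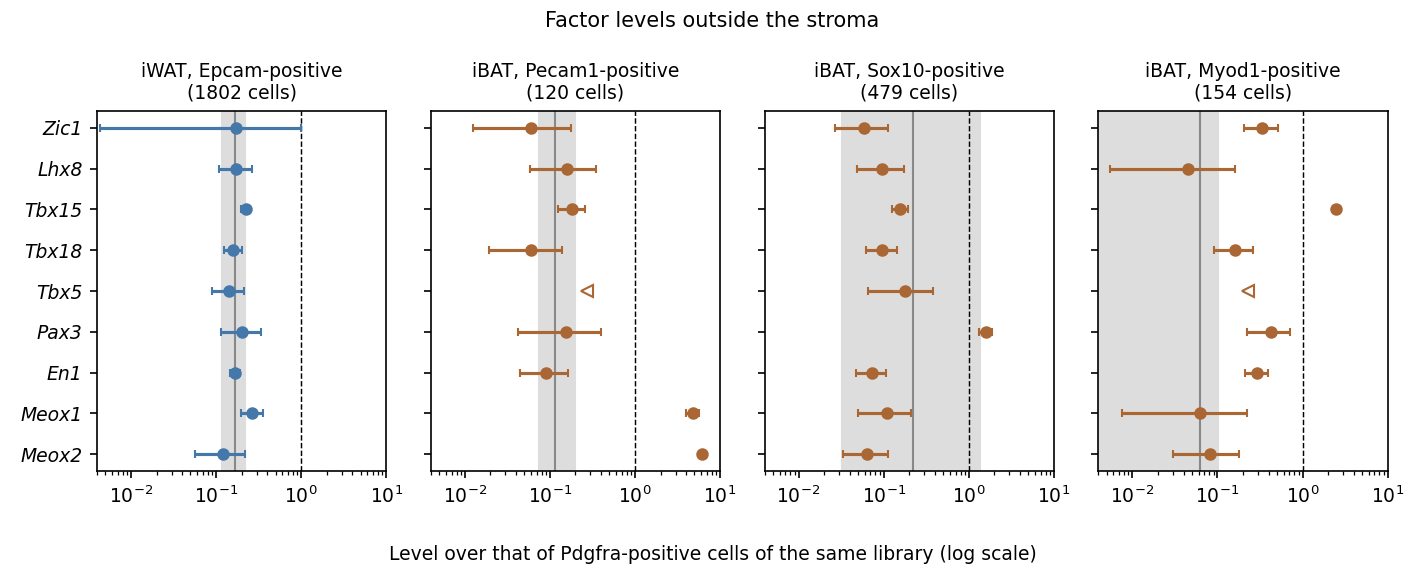
Level of each factor in a gated class divided by its level in Pdgfra-positive cells of the same library, on a log axis, with 95% intervals for counting error. Grey bands span the ratios of 9 mesenchymal markers with the median as a grey line, cut at the left edge where a marker is at 0, dashed lines mark equal levels, and open triangles mark the ratio that 3 UMIs would give where none was seen. Meox1 and Meox2 exceed stroma in Pecam1-positive, Pax3 in Sox10-positive and Tbx15 in Myod1-positive iBAT cells.

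Stromal cells were next split by whether they held a UMI of a gene that marks a state, all at 10000 UMIs. Gdf10, a secreted ligand of the transforming growth factor family, gave wide splits, and the 6.94 of Meox2 in iWAT was the highest ratio where at least 100 cells held the state gene. Meox2 was seen in 16.9% of the 1110 iWAT cells with Gdf10 and in 2.44% of the others, a ratio of 6.94 (5.85 to 8.23), and in 34.5% against 16.9% in iBAT, a ratio of 2.04 (1.92 to 2.16). Zic1 in iBAT was seen in 27.2% of cells with Gdf10 and in 12.8% without. Lhx8 in iWAT was seen in 9.37% with Gdf10 and 5.06% without, and Tbx18 in iWAT in 20.8% and 16.1%. Pax3 went the opposite way in both depots, 1.53% against 3.23% in iWAT and 4.28% against 9.18% in iBAT, as did Meox1 (3.96% against 5.94%, and 2.89% against 7.25%). Tbx5 in iBAT was seen in 2.09% with Gdf10 and 4.38% without, while Tbx15 and En1 differed little.

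**Figure D4:**
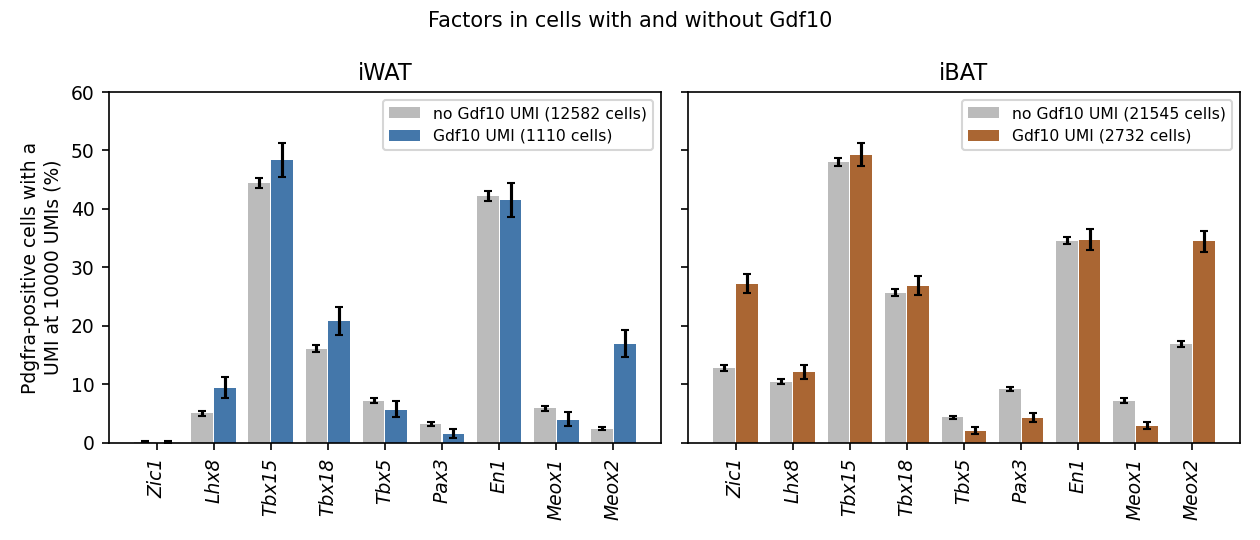
Share of Pdgfra-positive cells with a UMI of each factor at 10000 UMIs, in cells without (grey) and with (coloured) a Gdf10 UMI, with 95% Clopper-Pearson intervals. Meox2 in both depots, Zic1 in iBAT and Lhx8 and Tbx18 in iWAT stand higher with Gdf10 (16.9% against 2.44% for Meox2 in iWAT), and Pax3 and Meox1 stand lower.

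Other state genes drew other lines. With Dpp4, a surface peptidase of early interstitial progenitors, Meox2 was seen in 1.13% of iWAT cells against 4.17% without it, and Meox1 in 2.46% against 6.51%. Pi16, also a gene of those progenitors, went the other way where counts allowed. With it, Meox1 was seen in 8 of 48 iWAT cells (16.7%) against 5.74% without. Meox2 in iBAT was seen in 29 of 87 cells with Pi16 (33.3%) against 18.8%, but in 14.7% with Dpp4 against 19.0%. For Meox1 in iBAT (3 of 87) and Meox2 in iWAT (3 of 48) the intervals of the Pi16 ratio held 1. Lhx8 in iBAT was seen more often with Dpp4, in 87 of 436 cells against 2502 of 23841. With F3, the gene of coagulation factor III, Zic1 in iBAT was seen in 16.0% against 6.47% and Lhx8 in 11.7% against 5.37%, while Meox1 in iWAT was seen in 4.57% against 9.67%. Fabp4, a fatty acid binding protein of differentiating adipocytes, was not particular to them. It was at 992 CPM in iBAT Pecam1-positive cells against 110 in stroma. With Fabp4, Meox1 was more often seen in both depots, 9.07% against 4.73% in iWAT and 8.14% against 5.94% in iBAT. So was Lhx8, at 7.04% against 4.90% and 13.9% against 8.76%. Meox2 was seen less often with Fabp4 in iBAT, 16.4% against 20.4%, and in iWAT in 3.73% against 3.58%. Pax3 was seen more in cells with the proliferation gene Mki67, 3.85% against 2.55% in iWAT and 9.92% against 7.71% in iBAT. These are splits of cells within a library that pools 4 treatments, and the part of treatment in them was not tested.

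Finally, the factors were paired within single stromal cells at fixed depth, and the number of cells holding both was set against the number expected if they were independent. Most pairs were near independence. Among pairs with at least 20 cells expected, 21 of 27 in iWAT and 29 of 36 in iBAT were within 20% of it. In iBAT, Zic1 and Lhx8 were found together in 600 cells where 374 were expected, a ratio of 1.60 (1.48 to 1.74). Zic1 and Tbx5 were found together in 57 where 145 were expected, 0.394 (0.299 to 0.511). At 5000 UMIs per cell Zic1 was seen in 2016 and Tbx5 in 498 of 24277 cells, and their ratio was 0.218. No interval is given for that value, which rests on few cells with both, so a change with depth is not shown.

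Meox2 shared fewer cells than independence gives with Meox1 and Pax3 in iBAT. There Pax3 and Meox2 met in 246 cells against 396 expected, 0.622 (0.546 to 0.704), and Meox1 and Meox2 in 225 against 310, 0.726 (0.634 to 0.827). Lhx8 and Pax3 met in 306 against 223, 1.37 (1.22 to 1.53). In iWAT Tbx5 and Meox2 met in 11 cells against 35.0, 0.314 (0.157 to 0.562), and Pax3 and Meox1 in 10 against 24.5, 0.408 (0.196 to 0.751). Tbx18 and Meox2 met in 132 against 81.7, 1.62 (1.35 to 1.92). Doublets were not called, and cells of different treatments are mixed in each library.

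**Figure D5:**
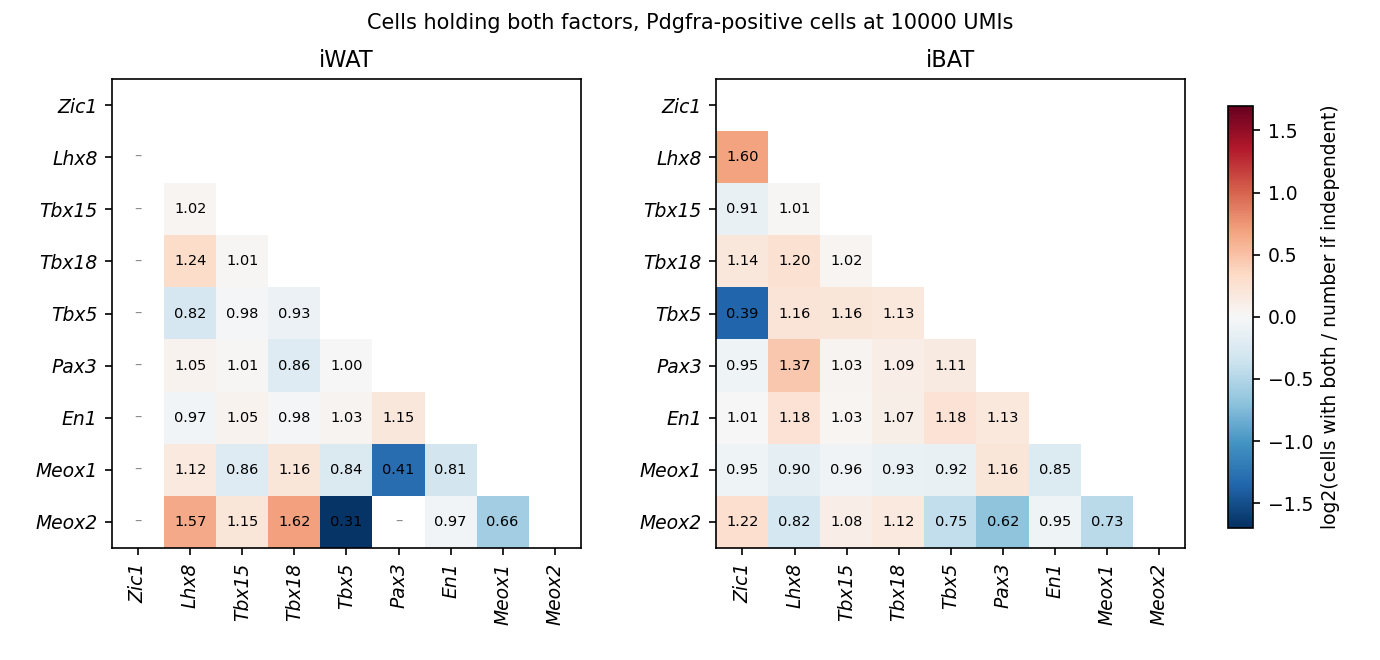
Cells holding both factors over the number expected under independence, printed in each square and coloured on a log2 scale, for Pdgfra-positive cells of iWAT and iBAT at 10000 UMIs. A dash marks pairs with fewer than 20 cells expected. The deepest red marks Tbx18 with Meox2 in iWAT (1.62) and Zic1 with Lhx8 in iBAT (1.60). The deepest blue marks Tbx5 with Meox2 in iWAT (0.314) and with Zic1 in iBAT (0.394).

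The same measure was taken against the other positional factors, and the partners named here were chosen after their values were seen. In iBAT, Zic1 met Zic4 in 197 cells against 76.1 expected, 2.59 (2.24 to 2.98), although the genes overlap and their reads may not be fully separable. It met Eya2, a transcriptional coactivator, at 1.68 (1.48 to 1.90), Zic5 at 1.66 (1.38 to 1.97) and Hoxc8 at 1.51 (1.42 to 1.59). Lhx8 had Zic4 (1.71), Zic5 (1.66) and Eya2 (1.59) as its first 3 partners. Tbx5 had Osr2, an odd-skipped factor of limb mesenchyme, at 2.05 (1.68 to 2.49) and its chromosomal neighbour Tbx3 at 1.55 (1.34 to 1.79), with Zic4 (0.368) and Eya2 (0.373) lowest. Tbx3 was conversely among the lowest partners of Zic1, at 0.597. Six2, though 18.4 times higher in iBAT, met Zic1 in 268 cells against 403, 0.664 (0.587 to 0.749).

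In iWAT, Meox2 met Osr1 at 2.21 (1.84 to 2.64) and Foxp2 at 2.03 (1.56 to 2.60), and was least often found with Osr2, in 10 cells against 49.1 expected, 0.204 (0.0977 to 0.375), and with Irx5, at 0.316. Meox1 met Alx4 at 1.85 (1.38 to 2.42). Leaving aside Zic1 in iWAT, where only 2 partners reached 20 expected cells, Tbx15 ranged least, from 0.715 (Hand2) to 1.21 (Six2) in iWAT and from 0.824 (Zic4) to 1.17 (Scx) in iBAT. Tbx15 was seen in 44.7% and 48.1% of stromal cells, and so high a share bounds this ratio from above. Its range therefore cannot be compared with those of rarer factors.

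Over 7 profiles of a library and class with at least 50 cells each, the genes most like each factor by Pearson correlation of log2(CPM + 1) were listed among 11029 genes. For Zic1 they were Elobl (r = 0.99), the ribosomal protein gene Rpl37 (0.96) and Six2 (0.95). For Tbx18 they were Igfbp6, Pcolce and Has1 (all 0.99), and for Meox2 Mettl1, the endothelial gene Esm1 and Fabp4 (all 0.99). For Tbx5 they were Ror2, Meg3 and Spon2 (all 0.99). Such a correlation leaves out the size of a change. Rpl37 was at 1279 CPM in iWAT Sox10-positive cells and 1606 in iBAT stroma, where Zic1 was at 0 and 19.7. Mettl1 was at 31.8 CPM in iWAT Epcam-positive and 50.6 in iBAT Pecam1-positive cells, where Meox2 was at 0.473 and 151. These 7 points share 2 libraries and their depth, and with a pseudocount of 0.1 in place of 1 only 11 of 27 such genes stayed in the lists.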

How the data were processed

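Per the labels and methods, stromal vascular cells of each depot were processed on the BD Rhapsody platform and the authors deposited 1 matrix of UMI counts per depot, as raw counts per gene and cell. The submitters' processing notes name Seurat 5.0.0 and mm39, and the methods say that alignment and annotation ran on the data pipeline of a genomics company. Its version and settings are not given in the sources used here. The members and lists were chosen with earlier results of these data known. Counts were summed over cells and divided by the class total (Python 3.11.15, numpy 2.4.6, scipy 1.17.1, matplotlib 3.10.9). Fixed-depth shares drew 10000 UMIs per cell without replacement, with a fixed seed. Steps were tested on simulated data. Genes needed 100 UMIs over both stromal classes for a depot ratio. A library at 0 was set to 3 counts. Other positional factors were named as the 8 highest and 8 lowest ratios and the 6 highest levels, of which some are not reported here, while partners in co-detection were chosen after their values were seen. No doublet caller was run, and cells with UMIs of several gate genes were left out of the gated classes. Treatments were not compared. No gene, cell or column of another series was used. Promoter windows for Tbx15, Tbx5, Pax3 and Meox1 were not used here.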

Additional observations from a re-analysis of the deposited data

Results flagged for a closer look

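Among the splits of the 9 factors by 9 state genes and the 36 pairs of factors, 3 cases moved in opposite directions between depots with intervals on either side of 1. The intervals were not adjusted for the number of comparisons looked through, and no other genes were set beside this count. The differences between depots were not tested. The share of stromal cells with Pax3 in cells with a Fabp4 UMI was 0.711 times that in cells without in iWAT (0.558 to 0.907) and 1.24 times in iBAT (1.14 to 1.35). Meox1 was seen 1.31 times as often in cells with the interferon-stimulated gene Isg15 as in the rest in iWAT (1.11 to 1.55) and 0.806 times as often in iBAT (0.663 to 0.979). In the same split 74.0% of iWAT and 7.60% of iBAT stromal cells had an Isg15 UMI. Lhx8 and Meox2 met in single cells 1.57 times as often as independence gives in iWAT (1.13 to 2.12) and 0.816 times in iBAT (0.738 to 0.900).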

How the results depend on the processing

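No paired analysis was possible because each depot has 1 library. Of 9 alternatives for the depot ratios, the gate of 1 UMI for every gate gene leaves the stromal class as it is. All 9 factors kept the side of their ratio under the other 8, with log2 ratios from 5.88 to 6.49 for Zic1, 2.33 to 3.05 for Meox2 and -0.87 to -0.52 for Tbx5. Of these, 3 were chosen after seeing the data. Over all kept cells the median of the factors was 0.98. Median-of-ratios scaling moved all log2 ratios by -0.04 and gave 0.21 for the median of the other positional factors. Genes 4-fold higher in iBAT and iWAT numbered 515 and 423, with no UMI minimum 927 and 954, and at 2-fold 1482 and 1397. Tbx15 in Myod1-positive cells was 1.61 times stroma under the stricter cell filter and 2.08 times with gates that were not exclusive. Meox2 and Meox1 in Pecam1-positive cells were 5.23 and 3.94 times with 1 UMI as the gate, and 3.92 and 3.28 with gates that were not exclusive. Pax3 in iBAT Sox10-positive cells ranged from 1.35 with gates that were not exclusive to 1.57 under the other alternatives. With 2 UMIs as the Gdf10 gate, the Meox2 ratio was 8.97 in iWAT and 2.32 in iBAT, and that of Zic1 in iBAT 2.42. At 5000 UMIs the co-detection ratios in iBAT, given without intervals, were 0.218 for Zic1 with Tbx5 and 0.749 for Pax3 with Meox2. Of the like genes, 11 stayed with the smaller pseudocount. The cause of these moves was not tested. The Zic1 level in iWAT stroma rests on 78 UMIs.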
